A study of Mus musculus with 4 samples.

Results

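The genes described are 8 enzymes of haem synthesis: Alas1, Alas2, Alad, Uros, Urod, Cpox, Ppox and Fech. They were taken by symbol from a list chosen with earlier results of these data known, and all 8 were found among the 27998 genes counted. Their transcripts were followed by single-cell RNA sequencing of mouse bone marrow in 4 libraries, each from 1 mouse: 2 with wild-type Idh1 (Idh1-WT) and 2 with the Idh1-R132H mutation, which lies in the cytosolic isocitrate dehydrogenase. In the donor mice tamoxifen was injected over 5 days to recombine an EYFP reporter and, in the mutant group, a heterozygous Idh1-R132H allele. The driver and cell type of the recombinase, and the age and strain of the mice, are not given in the sources used here. After 2 weeks, EYFP+ lineage-negative marrow was sorted and given to fully irradiated hosts with no supporting marrow, and the hosts' marrow was taken 16 weeks later. From each mouse 4000 cells were sorted from each of 3 populations and pooled in 1 tube: EYFP+ CD45.1+ total haematopoietic cells of the marrow, EYFP+ Lin- cKit+ cells (LK), and EYFP+ Lin- Sca1+ cKit+ cells (LSK). Both groups thus carried EYFP, tamoxifen exposure and transplantation, and cell shares were partly set by the sort. The mutation itself cannot be read from these counts.

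Haem, the iron-holding ring of haemoglobin, cytochromes and peroxidases, is built partly in mitochondria and partly in the cytosol. The pathway starts with 5-aminolevulinate synthase, which joins glycine to succinyl-CoA and has a form found in most cells (ALAS1) and an erythroid form (ALAS2, on the X chromosome). ALAD, UROS and UROD then act in the cytosol, CPOX and PPOX complete the porphyrin in mitochondria, and FECH inserts iron. In red cell precursors the ALAS2 form supplies the bulk of the haem for globin, whereas ALAS1 is held down by haem itself.

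The stretches before the starts of 4 of these genes are shown because the data set them apart: Cpox had the largest difference between erythroid and stem cells, Alas2 was almost undetected, and Alad and Urod followed each other across the marrow. They come from RefSeq (GRCm38.p6), run 5′ to 3′ on the gene's strand, and carry in capitals each match to GATAA or, on the other strand, TTATC, the core read by GATA factors. The Alas2 stretch is printed only up to the first base of the GENCODE transcript, which lies before RefSeq's start.
Cpox (chr16:58669958-58670207, plus strand): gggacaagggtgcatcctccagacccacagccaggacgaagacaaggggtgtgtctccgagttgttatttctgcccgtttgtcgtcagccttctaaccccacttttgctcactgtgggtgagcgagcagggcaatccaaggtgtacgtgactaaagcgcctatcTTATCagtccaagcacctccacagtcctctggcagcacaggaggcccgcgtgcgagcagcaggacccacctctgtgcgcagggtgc
Alas2 (chrX:150547167-150547374, plus strand): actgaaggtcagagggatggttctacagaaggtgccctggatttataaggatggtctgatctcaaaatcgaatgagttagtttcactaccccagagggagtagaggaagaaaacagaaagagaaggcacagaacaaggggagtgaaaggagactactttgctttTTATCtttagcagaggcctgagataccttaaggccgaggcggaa
Alad (chr4:62520064-62520313, minus strand): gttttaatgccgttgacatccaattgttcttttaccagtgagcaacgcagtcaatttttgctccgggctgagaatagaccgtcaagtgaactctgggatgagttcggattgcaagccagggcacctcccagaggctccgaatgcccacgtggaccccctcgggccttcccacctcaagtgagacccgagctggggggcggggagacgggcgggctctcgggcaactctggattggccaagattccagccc
Urod (chr4:116994414-116994663, minus strand): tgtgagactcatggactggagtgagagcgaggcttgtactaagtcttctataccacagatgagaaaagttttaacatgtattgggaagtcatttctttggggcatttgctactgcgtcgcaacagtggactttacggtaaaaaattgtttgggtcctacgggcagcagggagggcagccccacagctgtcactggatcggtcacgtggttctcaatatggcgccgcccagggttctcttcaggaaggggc
Of the 7 stretches of 250 bases examined (those of Alas1, Alas2, Alad, Uros, Urod, Cpox and Ppox), 2 held a match, those of Cpox and Alas2, and in each it lay 86 bases before the start that RefSeq's table uses. Among all 32851 mouse promoter stretches of that length, 22.6% held at least 1 match. A match is only a run of letters and shows no binding, and the absence of one covers this window alone.

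The libraries held 40364701 to 56353466 unique molecular identifiers (UMIs, 1 per captured transcript), of which 86.4 to 87.9% lay in the 16280 barcodes kept as cells, at a median of 7228 to 8707 UMIs per cell. Idh1-WT 1 and Idh1-R132H 1 shared 345 cell barcodes where 23.5 were expected by chance; every other pair shared 13 to 33. In the shared barcodes of Idh1-WT 1 the median was 579 UMIs, against 27129 for the same barcode in Idh1-R132H 1, so 329 were dropped from Idh1-WT 1 and 2 from Idh1-R132H 1, which left 15949 cells. Each cell was assigned to 1 of 14 groups (gates) by marker lists that hold none of the 8 genes; 12178 cells were assigned and 3771 (23.6%) were not. The erythroid progenitor gate held 508 cells, the stem gate 2208 and the granulocyte-monocyte progenitor gate 2821. In the erythroid gate 9 of 10 markers were above their level in other cells, among them the regulator Klf1 (335 against 4.92 counts per 1000000 UMIs, CPM, the scale of every level given here; UMIs are counted at the 3′ end, with no correction for gene length), carbonic anhydrase Car1 (3491 against 24.4 CPM) and the erythropoietin receptor Epor (73.9 against 2.06 CPM); Cnrip1 was below it (4.31 against 9.77 CPM). A further 156 cells scored highest on a list of later erythroblast markers, but 63 of them fell in stem clusters and 22 in the erythroid cluster, and the red cell anion exchanger Slc4a1 stood at 1.30 CPM, so they are called here the erythroblast-list cells. No macrophage cluster was found either, and 92 of the 164 cells gated by that list fell in stem clusters.

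Alas2, the erythroid form of the opening enzyme, was close to undetected in every gate. In 15949 cells with 171781818 UMIs there were 7 Alas2 UMIs, each in a different cell. They fell 1 each in the erythroid, stem, monocyte, B, basophil and mast, and erythroblast-list gates, and 1 in an unassigned cell. Alas1, the form of other cells, gave 29471 UMIs in 6188 cells and up to 46 in a single cell. In the erythroid gate Alas1 made up 99.5% of the UMIs of the 2 genes (191 against 1; exact 95% interval 97.1 to 99.99%). It was 99.8% in the stem gate (473 against 1) and 100% in the granulocyte-monocyte progenitor gate (23259 against 0), and no gate fell below 97.2%. With clusters in place of gates, 3 of the 7 Alas2 UMIs lay in erythroid cells, and the Alas1 share there was 98.6% (204 against 3). The single Alas2 UMI of the erythroid gate lies under the 3 counts, or 0.380 CPM over that gate, that a count of 0 would still allow, so no Alas2 level can be given for it. Intervals cover counting error only. With so few Alas2 UMIs and 4 libraries, the exact permutation tests of the share could not have passed (the smallest two-sided p they can give is 0.13 between gates and 0.33 between genotypes), and nothing is read from them.

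Alas1 was highest in granulocyte-monocyte progenitors, the parents of neutrophils and monocytes. In that gate it stood at 397 and 402 CPM in the Idh1-WT libraries and at 386 and 332 CPM in the Idh1-R132H libraries, a mean of 379 ± 32.4 CPM (SD, n = 4 libraries). In stem-gated cells it was 27.2, 28.3, 30.3 and 29.3 CPM in the same order, and in erythroid cells 25.2, 29.8, 20.3 and 21.2 CPM. Every progenitor value thus lay more than 10 times above every stem and erythroid value, while the stem and erythroid values overlapped. The plot of both synthases by gate and library shows this gap. Alas1 was higher in granulocyte-monocyte progenitors than in stem cells by 3.97 ± 0.11 on the log2 scale (SE; edgeR quasi-likelihood test, adjusted p = 8.05e-34) and lower in erythroid cells than in granulocyte-monocyte progenitors by 4.07 ± 0.13 (log2 difference -4.07, adjusted p = 5.52e-31). Between erythroid and stem cells the log2 difference was -0.10 ± 0.18 (edgeR, adjusted p = 0.655), with a 95% interval of -0.46 to 0.27. The free RNA of the suspension carried Alas1 too, and its estimated contribution to the erythroid gate was 1.60 to 2.64 CPM, or 6.47 to 8.98 CPM by a higher estimate made per gate.

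**Figure D1:**
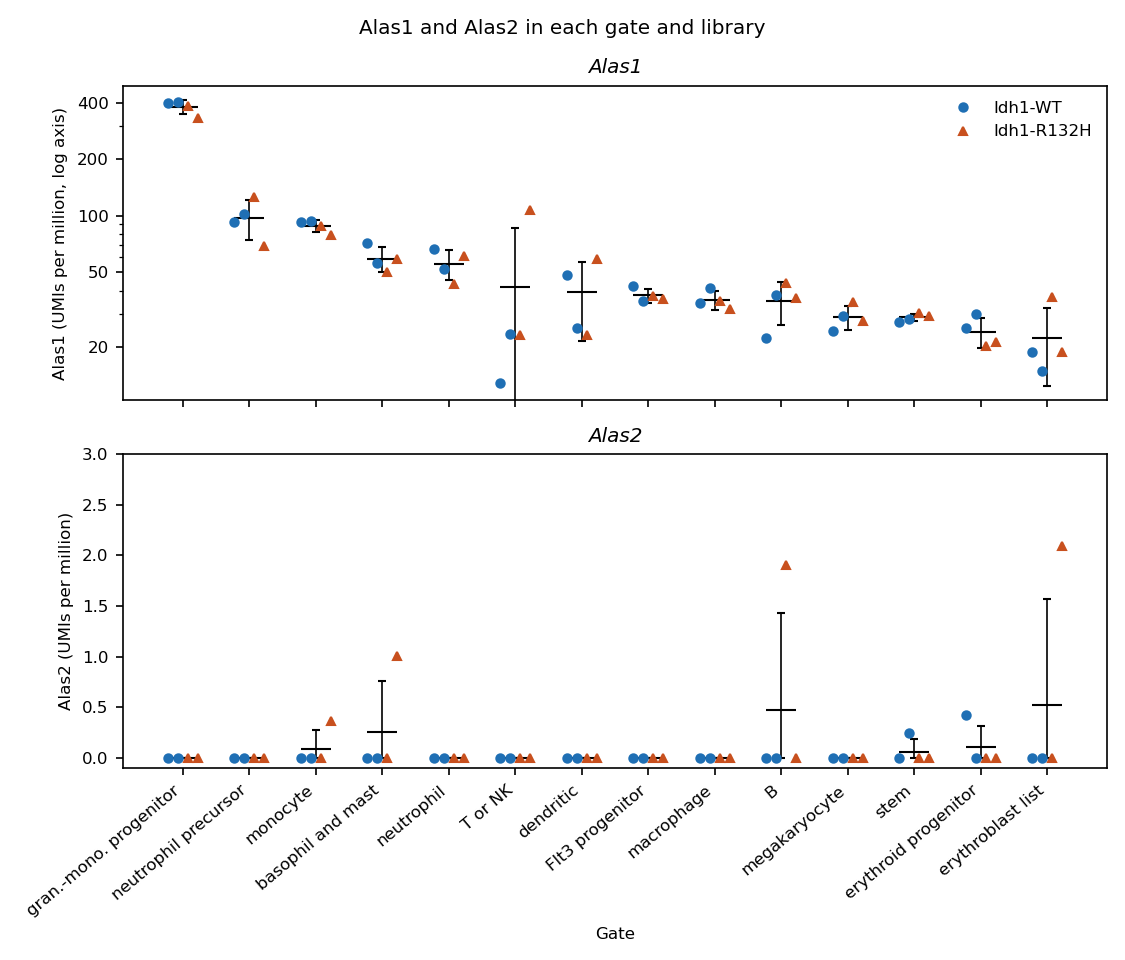
Alas1 (upper panel, log axis) and Alas2 (lower panel, linear axis) in CPM for each gate; each point is 1 library, circles are Idh1-WT and triangles Idh1-R132H, and bars give the mean and SD of the 4 libraries. Alas1 lay at 332 to 402 CPM in granulocyte-monocyte progenitors and at 20.3 to 29.8 CPM in erythroid progenitors, and Alas2 had at most 1 UMI in any library and gate.

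Alas1 was lower further down the myeloid branch. Neutrophil precursors, which fill their secondary granules, had 93.0, 102, 125 and 69.0 CPM, monocytes 93.1, 94.0, 87.9 and 79.0 CPM, and neutrophils a mean of 55.7 ± 10.3 CPM. No library of these gates reached the lowest progenitor value of 332 CPM. The log2 difference from granulocyte-monocyte progenitors was -1.19 ± 0.11 in neutrophil precursors (edgeR, adjusted p = 2.70e-14) and -2.17 ± 0.11 in monocytes (adjusted p = 7.65e-24). In neutrophils, which have a median of 1518 to 1557 UMIs per cell, the higher estimate of free RNA amounts to 54.4 to 69.2 CPM of Alas1, about the level measured, so no neutrophil expression can be read from it. Below monocytes came basophil and mast cells (59.2 ± 9.06 CPM), and from there down to the erythroblast-list cells (22.3 ± 9.85 CPM) each gate overlapped the next. In the T and NK gate, at 41.9 ± 44.3 CPM, 59.5% of the Alas1 UMIs lay in the 5 richest cells. For shares per cell, cells with at least 2000 UMIs were thinned to 2000, and cells below that were left out. An Alas1 UMI was then found in 48.3% of granulocyte-monocyte progenitors, 15.2% of neutrophil precursors and 12.1% of monocytes. It was found in 6.09% of stem-gated cells and 3.80% of erythroid cells (1.85 to 5.51% by library). B cells gave 2.90% (0 to 4.48% by library), and the library ranges of erythroid and B cells overlapped. Exact 95% intervals over pooled cells were 2.30 to 5.87% for erythroid and 1.07 to 6.20% for B cells. They leave out the spread between mice. The B cell share rests on the 207 deepest of 579 cells, as 372 were left out. Before thinning the shares were 96.1% of granulocyte-monocyte progenitors (median 21563 UMIs), 28.0% of erythroid cells (median 12109 UMIs) and 9.50% of B cells (median 1786 UMIs).

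Across the 56 sums of library and gate, the genes whose log2(CPM + 1) followed Alas1 most closely among 6936 genes were Elane (Pearson r = 0.916), Ms4a3 (0.860), Anxa3 (0.853), Mpo (0.849) and Gpi1 (0.837). Elane and Mpo encode neutrophil elastase and the haem enzyme myeloperoxidase of primary granules. Elane, Ms4a3 and Mpo also served as markers of the granulocyte-monocyte progenitor gate, and the sums share libraries and depth, so these values are a description. For Alas2 the highest r was 0.389 and rests on 7 UMIs, which names no companion.

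The enzymes after the synthase showed the opposite map. Erythroid progenitors held the highest mean levels of Alad, Uros, Urod, Cpox and Fech, and shared the highest Ppox with the erythroblast-list cells. For Uros and Fech the libraries of those cells also overlapped the erythroid ones. They ran from 4.95 to 25.1 against 18.4 to 26.4 CPM for Uros, and from 16.7 to 52.2 against 43.8 to 66.3 CPM for Fech. Against stem cells, 6 of the 7 genes that could be tested were higher and Alas1 was not called; across all 10411 genes 63.8% were called, 29.4% as higher and 34.5% as lower. Alas2 was too low to test. The plot of the 6 enzymes by gate gives their levels.

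ALAD condenses aminolevulinate into the pyrrole porphobilinogen. Its transcript was at 260 and 236 CPM in the erythroid cells of the Idh1-WT libraries and at 210 and 212 CPM in those of the Idh1-R132H libraries, against 73.0, 66.7, 67.3 and 58.7 CPM in stem-gated cells. The lowest erythroid library was far above the highest stem library, and the mean was 3.45 times higher. The log2 difference was 1.94 ± 0.07 (edgeR, adjusted p = 8.44e-56).

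UROS closes the ring into uroporphyrinogen. Its transcript was at 26.4, 19.9, 21.6 and 18.4 CPM in erythroid cells and 9.84, 9.92, 6.78 and 6.35 CPM in stem-gated cells. The groups did not overlap, and the log2 difference was 1.55 ± 0.19 (edgeR, adjusted p = 4.39e-13).

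UROD removes carboxyl groups to give coproporphyrinogen. Erythroid cells held 215, 183, 182 and 199 CPM and stem-gated cells 92.1, 86.0, 84.8 and 83.0 CPM. Stem cells already held more Urod than most gates, after erythroid, erythroblast-list and megakaryocyte cells (106 ± 7.26 CPM). Every erythroid library was still above every stem library; the log2 difference was 1.32 ± 0.08 (edgeR, adjusted p = 6.44e-35).

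CPOX, in the space between the mitochondrial membranes, makes protoporphyrinogen. It had the largest step of the 8 genes: 145, 112, 108 and 113 CPM in erythroid cells against 19.7, 19.8, 16.5 and 13.2 CPM in stem-gated cells. Its mean was 6.90 times higher, with a log2 difference of 2.94 ± 0.12 (edgeR, adjusted p = 5.64e-52). Erythroblast-list cells came next (70.0 ± 15.5 CPM), and no other gate had a mean above 25.9 CPM.

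PPOX oxidises protoporphyrinogen to protoporphyrin. It had the smallest step of the 6 enzymes, at 36.5, 28.7, 35.9 and 29.5 CPM in erythroid cells and 13.7, 16.9, 18.2 and 22.0 CPM in stem-gated cells. The groups still did not overlap, and the log2 difference was 1.02 ± 0.15 (edgeR, adjusted p = 4.45e-10).

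FECH, which inserts ferrous iron, was at 66.3, 45.8, 43.8 and 47.0 CPM in erythroid cells and at 19.2, 17.6, 18.4 and 17.5 CPM in stem-gated cells. Idh1-WT 1 was the highest erythroid library, and the others lay within 43.8 to 47.0 CPM. The log2 difference was 1.64 ± 0.14 (edgeR, adjusted p = 1.31e-20).

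**Figure D2:**
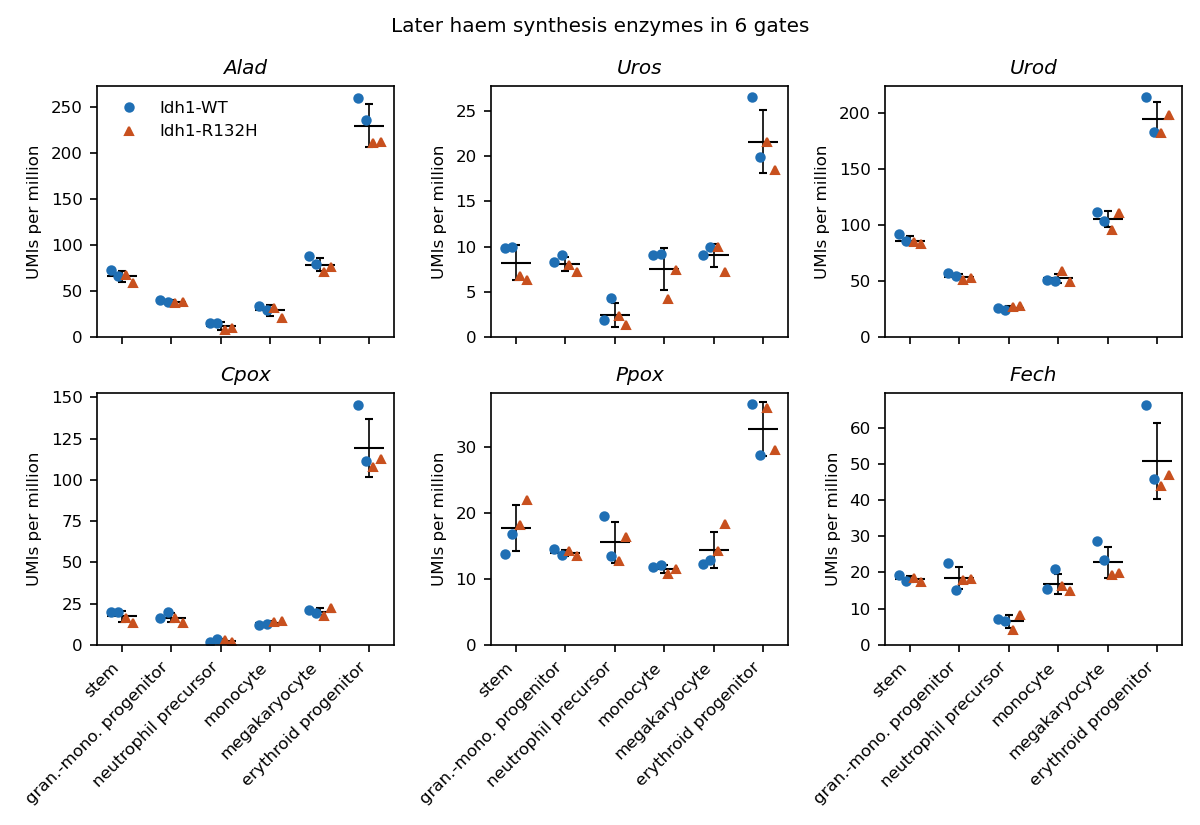
Level of Alad, Uros, Urod, Cpox, Ppox and Fech in 6 gates, in CPM; circles are Idh1-WT libraries, triangles Idh1-R132H libraries, and bars the mean and SD of the 4. Erythroid progenitors lay above stem cells for each gene in all 4 libraries, from 1.85 times for Ppox to 6.90 times for Cpox by the means.

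Against granulocyte-monocyte progenitors the split within the pathway was complete: Alas1 was lower in erythroid cells and the 6 later enzymes were higher (54.5% of all genes were called, 29.1% as higher and 25.4% as lower). In granulocyte-monocyte progenitors Alad was at 37.5 to 40.7 CPM, Uros at 7.18 to 9.08, Urod at 51.6 to 57.6, Cpox at 13.3 to 19.9, Ppox at 13.5 to 14.5 and Fech at 15.2 to 22.7 CPM. None of these ranges reached the lowest erythroid library of the same gene. The log2 differences were 2.77 ± 0.10 for Cpox, 2.46 ± 0.06 for Alad, 1.73 ± 0.07 for Urod, 1.36 ± 0.12 for Fech, 1.31 ± 0.16 for Uros and 1.11 ± 0.13 for Ppox. All kept their call and sign under each of 18 settings. The plot of differences between gates sets Alas1 apart from the other genes.

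**Figure D3:**
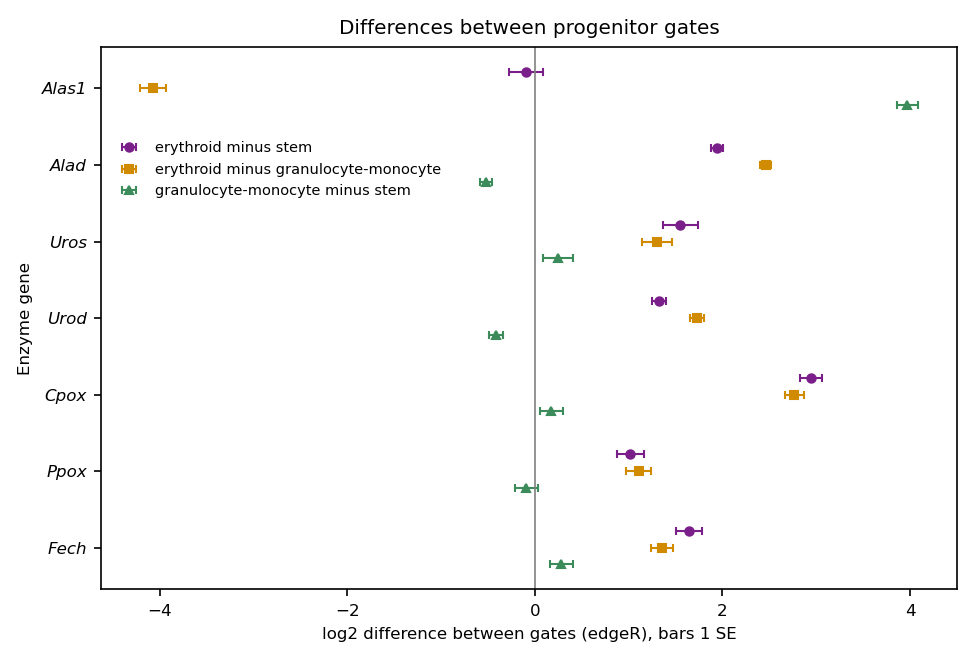
Log2 difference (edgeR) of each tested gene between erythroid, stem and granulocyte-monocyte progenitor gates, taken in pairs; bars are 1 SE. Alas1 stood at -4.07 and Cpox at 2.77 between erythroid cells and granulocyte-monocyte progenitors.

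Granulocyte-monocyte progenitors thus had far more Alas1 than stem cells, while their later enzymes did not follow. Alad was lower by a log2 difference of -0.52 ± 0.07 (edgeR, adjusted p = 5.63e-12) and Urod by -0.41 ± 0.07 (adjusted p = 1.96e-07). Uros (0.24 ± 0.16), Cpox (0.18 ± 0.12) and Ppox (-0.09 ± 0.12) did not pass. Fech passed at 0.28 ± 0.12 (edgeR, adjusted p = 0.0339), with 18.5 CPM against 18.2 CPM, and in only 8 of 18 settings. Without Idh1-WT 1 the Fech difference was 0.13 (adjusted p = 0.390), without Idh1-R132H 1 it was 0.27 (adjusted p = 0.0820) and without Idh1-R132H 2 it was 0.27 (adjusted p = 0.0760). In this comparison 71.9% of all genes were called, 34.0% as higher and 38.0% as lower. With scaling by library totals the median over all genes moved from -0.05 to -0.31, Fech went to 0.02 (adjusted p = 0.882) and Ppox was called at -0.35 (adjusted p = 0.00675); calls over all genes were 3535 higher and 3955 lower in the main scaling, and 2277 and 5460 with library totals.

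In neutrophil precursors most of the pathway was lower than in granulocyte-monocyte progenitors. Alad was at 12.3 ± 3.91 CPM against 38.6 ± 1.42 in granulocyte-monocyte progenitors, Cpox at 2.58 ± 0.949 against 16.4 ± 2.69, and Fech at 6.45 ± 1.73 against 18.5 ± 3.09. By the higher estimate, free RNA in neutrophil precursors amounted to 5.71 to 7.04 CPM for Alad, 1.36 to 1.96 CPM for Cpox and 1.63 to 2.29 CPM for Fech. With that estimate subtracted, the log2 differences were -1.59 for Alad, -3.37 for Cpox and -0.96 for Fech, and all 3 were called. Ppox was the exception, at 12.8 to 19.5 CPM against 13.5 to 14.5. By edgeR 6 genes were lower, among them Cpox at -1.93 ± 0.27 and Alad at -0.84 ± 0.14, and Ppox was higher at 0.97 ± 0.16 (adjusted p = 2.44e-08); 66.6% of all genes were called, 35.8% as higher and 30.8% as lower. The Ppox call depends on the scaling: with library totals, which shift the median of all genes from 0.07 to -0.71 and the calls from 3724 higher and 3211 lower to 1727 and 6137, it was 0.18 (edgeR, adjusted p = 0.277). Urod, at -0.24 ± 0.11 (adjusted p = 0.0365), lost its call under several settings, among them without Idh1-WT 1 (-0.14, adjusted p = 0.346) and without Idh1-WT 2 (-0.22, adjusted p = 0.0637), and Uros (-0.99 ± 0.31) just missed it without Idh1-WT 1 (-0.80, adjusted p = 0.0505).

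Monocytes stayed closer to granulocyte-monocyte progenitors. Besides Alas1, Alad was lower, at 29.3 ± 5.78 CPM, with a log2 difference of -0.48 ± 0.10 (edgeR, adjusted p = 1.52e-05), and Cpox at -0.35 ± 0.16 (adjusted p = 0.0490), a call made in 6 of 18 settings. Uros, Urod, Ppox and Fech did not pass; 56.9% of all genes were called, 27.9% as higher and 29.0% as lower. Without Idh1-WT 1 the Cpox difference was -0.26 (adjusted p = 0.219), without Idh1-WT 2 it was -0.23 (adjusted p = 0.256), and without Idh1-R132H 1 it was -0.40 (adjusted p = 0.0612).

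The erythroblast-list cells held less of the pathway than erythroid progenitors. Alad stood at 142 and 129 CPM (Idh1-WT) and 155 and 205 CPM (Idh1-R132H), below every erythroid progenitor library, and Cpox at 66.8, 49.5, 84.2 and 79.4 CPM. Much of this lay in few cells. The 5 richest of 156 cells held 37.5% of the Alad UMIs, 28.6% of Urod, 50% of Cpox, 41.8% of Ppox and 34.5% of Fech. In the 508 erythroid progenitors the 5 richest held 5.02 to 8.53% for the same genes. The log2 differences were -0.70 ± 0.10 for Alad, -0.65 ± 0.11 for Urod, -0.91 ± 0.16 for Cpox and -0.73 ± 0.23 for Fech (edgeR, adjusted p = 2.02e-08, 5.32e-07, 1.27e-06 and 0.00952), while Alas1, Uros and Ppox did not pass; 26.0% of all genes were called, 11.4% as higher and 14.6% as lower. The sum of the erythroblast markers was 271 to 431 CPM in these cells and 172 to 225 CPM in the erythroid gate. Without Idh1-WT 1 the Fech difference was -0.23 (adjusted p = 0.615), and with library totals the calls over all genes went from 1189 higher and 1517 lower to 1585 and 730.

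Over the 56 sums Alad followed Urod (r = 0.910 of log2(CPM + 1)) and Cpox (0.837), and Urod followed Cpox (0.822), whereas Alas1 ran against Alad (-0.495). Ppox followed these genes only weakly (0.232 with Alad, 0.308 with Urod and 0.215 with Cpox). With Alas1, r was -0.436 for Urod and -0.377 for Cpox, and closer to 0 for Uros (-0.182), Fech (-0.176) and Ppox (-0.0681). These correlations over sums that share libraries and depth are a description.

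The rest of the haem and iron machinery was read from lists of 60 genes in 11 groups, of which 59 were in the files. Of 11 transport genes 8 were higher in erythroid than in stem cells and 3 did not pass (median log2 difference 0.60, against -0.08 for all genes); with the other scalings 6 were higher. The porphyrin carrier Tmem14c (2.04 ± 0.08), the mitochondrial glycine carrier Slc25a38 (2.03 ± 0.16), Abcb10 (2.08 ± 0.25) and Abcb6 (2.05 ± 0.29) led. The mitochondrial iron importer mitoferrin, Slc25a37, was at 8.32 ± 2.10 CPM in erythroid and 10.1 ± 0.794 CPM in stem-gated cells and did not pass (-0.08 ± 0.22, edgeR, adjusted p = 0.763). It was lower than in granulocyte-monocyte progenitors (-0.72 ± 0.19, adjusted p = 4.83e-04).

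Of 5 genes of iron uptake and export 4 were higher, the exporter among them, and 1 lower (median 3.49). The endosomal iron reductase Steap3 stood at 65.6 ± 8.73 against 5.54 ± 1.15 CPM (3.69 ± 0.17), the transferrin receptor Tfrc at 29.7 ± 2.11 against 2.88 ± 0.879 CPM (3.49 ± 0.21), and the iron transporter Slc11a2 was higher by 2.98 ± 0.19. The iron exporter Slc40a1 was higher as well (5.34 ± 0.29), at 27.0 ± 3.90 against 0.678 ± 0.434 CPM, with the stem level resting on 11 UMIs. The zinc and iron carrier Slc39a14 was lower (-1.18 ± 0.53), on 9 UMIs in erythroid cells. Its libraries overlapped, at 0 to 1.96 CPM in erythroid and 1.29 to 4.08 CPM in stem-gated cells. For iron-sulphur assembly 6 of 8 genes were higher and 2 lower (median 0.89), led by the glutaredoxin Glrx5 (2.18 ± 0.07). Of 6 tested genes of iron storage and sensing, 4 were higher, all by less than 1 on the log2 scale (median 0.39), among them ferritin heavy chain Fth1 (0.42 ± 0.07).

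Past synthesis, the biliverdin reductase Blvrb was at 731 ± 86.4 CPM in erythroid and 68.1 ± 8.43 CPM in stem-gated cells (3.57 ± 0.11). Of its list of 6 tested genes of haem export and breakdown, 2 were higher and 3 lower (median -0.19), with haem oxygenase Hmox2 at -1.06 ± 0.09. The haem-regulated kinase Eif2ak1 was higher by 0.57 ± 0.16, and Bach1, the haem-binding repressor, did not pass (-0.54 ± 0.25, edgeR, adjusted p = 0.0544; it was called as lower with each other scaling). Of 6 erythroid regulators 4 were higher and 2 lower, from Gata1 at 5.88 ± 0.16 to Lmo2 at -1.20 ± 0.07; with the other scalings 3 were higher. Of 4 globin genes, 3 were higher, Hba-a1 by 5.60 ± 0.49, and Hbb-bt was lower (-1.82 ± 0.28). Hbb-bt varied widely, at 45.3, 23.2, 19.6 and 12.4 CPM in erythroid and 190, 65.0, 122 and 37.0 CPM in stem-gated cells, and the ranges overlapped. Hba-a1 and Hba-a2 are near copies between which reads may be divided. Whether reads are divided between Hbb-bs and Hbb-bt was not tested. Of 5 genes of respiratory haem, among them the haem-modifying enzymes Cox10 and Cox15, 4 were higher, led by cytochrome c, Cycs (1.63 ± 0.06). Of 4 haem proteins of myeloid cells none was higher and Cyba was lower.

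Against granulocyte-monocyte progenitors the same lists gave 6 higher and 1 lower of 11 transport genes, 4 higher of 5 genes of iron uptake and export, 7 higher and 1 lower of 8 iron-sulphur genes, and 6 higher of 6 regulators. Respiration divided, with 2 higher, 1 lower and 2 not passing: Cycs was at 688 ± 16.7 CPM in erythroid cells and 792 ± 89.9 CPM in the progenitors (-0.31 ± 0.06). The oxidase subunit Cybb, a haem protein of phagocytes, was lower in erythroid cells by a log2 difference of -2.38 ± 0.35 (edgeR, adjusted p = 2.20e-07).

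The study also asked what the Idh1 mutation changes. None of the 8 genes was called between Idh1-R132H and Idh1-WT in any of the 14 gates. Over 68 tests the smallest adjusted p by edgeR was 0.334, and log2 differences ran from -0.78 to 1.19. DESeq2 called none either. Few genes of any kind were called: 4 of 8120 (0.0493%) in erythroid cells, 30 of 10540 (0.285%) in stem-gated cells, 72 of 11107 (0.648%) in granulocyte-monocyte progenitors and 38 of 13300 (0.286%) in all cells summed. The share was 0.677% in B cells, 0.415% in monocytes, 0.323% in neutrophil precursors, 0.278% in neutrophils, 0.239% in megakaryocyte cells, 0.21% in erythroblast-list cells, 0.0796% in Flt3 progenitors, 0.0574% in macrophage-list cells, 0.0464% in basophil and mast cells, and 0% in dendritic and in T and NK cells. With 2 mice per group a missed call does not show that levels were equal.

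In erythroid cells the fitted log2 differences of the 7 tested genes were all below 0, with a median of -0.25 against -0.00349 for all genes; the mean Ppox level itself was 32.7 CPM in Idh1-R132H and 32.6 CPM in Idh1-WT. Alad, at 260 and 236 CPM against 210 and 212 CPM, differed by -0.25 ± 0.10 (edgeR, unadjusted p = 0.0151, adjusted p = 0.803; 95% interval -0.45 to -0.05). Alas1, at 25.2 and 29.8 against 20.3 and 21.2 CPM, differed by -0.41 ± 0.23 (adjusted p = 0.940). Fech differed by -0.34 ± 0.18, Uros by -0.26 ± 0.25, Cpox by -0.25 ± 0.13, Urod by -0.08 ± 0.11 and Ppox by -0.05 ± 0.20, each with an adjusted p above 0.9. Beside these values, the globins of the erythroid gate summed to 299 and 182 CPM for Idh1-WT mice, against 144 and 50.3 CPM for Idh1-R132H mice, and the sum of neutrophil precursor markers was 1502 CPM in Idh1-R132H 2 against 407 to 433 CPM in the other libraries; their part in the result was not tested. Without Idh1-WT 2, Cpox was called at -0.43 (edgeR, adjusted p = 0.0480).

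In granulocyte-monocyte progenitors, the gate with the most UMIs, the 7 means were lower in Idh1-R132H (median -0.09). Alas1 was at 397 and 402 against 386 and 332 CPM, a log2 difference of -0.14 ± 0.06 (edgeR, unadjusted p = 0.0307, adjusted p = 0.349; 95% interval -0.26 to -0.02). Idh1-R132H 2 lay below the other libraries and Idh1-R132H 1 close to Idh1-WT, and without Idh1-R132H 1 the difference was -0.24 and was called (adjusted p = 0.00575). Without the filter on low counts it was also called (-0.14, adjusted p = 0.0393). Cpox was at 16.3 and 19.9 against 16.0 and 13.3 CPM (-0.28 ± 0.12, adjusted p = 0.334).

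In stem-gated cells Uros was at 9.84 and 9.92 CPM in Idh1-WT against 6.78 and 6.35 CPM in Idh1-R132H (-0.60 ± 0.27, edgeR, unadjusted p = 0.0290, adjusted p = 0.655). Cpox was at 19.7 and 19.8 against 16.5 and 13.2 CPM (-0.43 ± 0.19, adjusted p = 0.655), and Ppox at 13.7 and 16.9 against 18.2 and 22.0 CPM, the reverse direction (0.38 ± 0.19, adjusted p = 0.723). Alas1 differed by 0.09 ± 0.15. Elsewhere Alad in neutrophil precursors was at 16.1 and 15.1 against 8.13 and 9.91 CPM (-0.78 ± 0.30, adjusted p = 0.597), and Fech in erythroblast-list cells at 16.7 and 29.7 against 42.1 and 52.2 CPM (1.19 ± 0.46, adjusted p = 0.559). In all cells summed, Cpox had the smallest p, at 22.3 and 21.3 against 18.1 and 18.6 CPM (-0.24 ± 0.07, unadjusted p = 0.00413, adjusted p = 0.310). The plot of the genotype differences shows the values of the erythroid, stem and granulocyte-monocyte progenitor gates with their intervals.

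**Figure D4:**
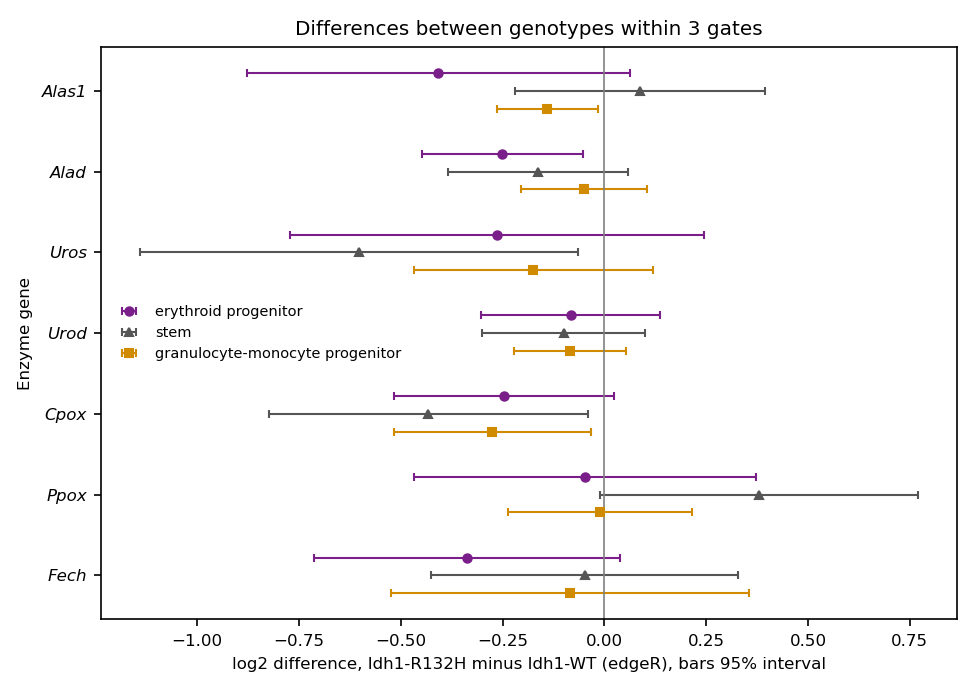
Log2 difference Idh1-R132H minus Idh1-WT of each tested gene in 3 gates, with 95% intervals from edgeR (2 libraries against 2). No point passed an adjusted p of 0.05; the 7 erythroid points ran from -0.41 for Alas1 to -0.05 for Ppox.

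The genotype difference itself was compared between gates. No gene of the 8 differed between erythroid and stem cells or between erythroid cells and granulocyte-monocyte progenitors (edgeR interaction term; 7 of 11060 genes, 0.0633%, were called in each), nor did any of them by DESeq2. The smallest unadjusted p was that of Alas1 against stem cells (-0.48 ± 0.25, edgeR, adjusted p = 0.833, unadjusted p = 0.0585).

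Of the listed genes beyond the 8, 3 were called between genotypes in these 3 gates. In erythroid cells beta globin Hbb-bs measured 33.2 and 29.3 CPM without the mutation against 5.88 and 5.07 CPM with it (-2.54 ± 0.30, edgeR, adjusted p = 9.25e-05). It kept the call without each library, but not when the 5% of cells with the most UMIs were left out (-3.01, adjusted p = 0.996) nor in clusters (-1.08, adjusted p = 0.996). Cycs in granulocyte-monocyte progenitors was at 842 and 890 against 740 and 695 CPM (-0.25, adjusted p = 0.00171), and Cybb there was at 17.6 and 14.5 against 22.5 and 24.6 CPM (0.56, adjusted p = 0.0156). The Cybb call was lost without Idh1-R132H 2 (adjusted p = 0.0570), with the replicate block (0.0735), in clusters (0.0842) and by DESeq2 (adjusted p = 0.0865).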

How the data were processed

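Polyadenylated RNA of pooled, sorted marrow cells was read with the 10x Single Cell 3′ kit v2, per the labels' protocols, 1 library per mouse. The authors deposited UMI counts per gene and barcode. The submitters' processing notes name Cell Ranger 4.0.0, Seurat and the builds GRCm38 and mm10, without saying which tool made the counts. UMIs of free RNA can enter every cell, so low levels were read beside an estimate of it from barcodes with at most 50 UMIs.

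A barcode counted as a cell from 500 UMIs and 200 genes upward, with mitochondrial UMIs of 10% or less (Python 3.11.15, scanpy 1.11.5). No doublet caller was run; leaving out the 5% of cells with the most UMIs was an alternative. A cell took the marker list with the highest mean z-score of log-scaled counts if that was at least 0.5 and at least 0.25 above the next; 1390 cells lay within 0.1 of the first limit and 2256 within 0.1 of the second. Leiden clustering (22 clusters, made without the 8 genes) was an alternative.

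UMIs were summed per library and gate. Gates were compared in 1 edgeR 4.0.16 quasi-likelihood fit (R 4.3.3, TMM scaling, filterByExpr, library as a term), and genotypes within each gate with at least 20 cells in every library, 2 against 2. TMM scaling means that a log2 difference can depart from the ratio of CPM levels. Benjamini-Hochberg adjustment ran over all genes tested, at 0.05. SEs and intervals were derived from the p. DESeq2 1.42.0, other scalings, no filter and each library left out were alternatives; keeping the shared barcodes, subtracting free RNA by gate and scaling by library totals were chosen after seeing the data. Same-numbered libraries of the 2 groups come from different mice and their deviations correlated at -0.05 to 0.01, so numbers were not used as pairs. The scripts were tested on simulated data. Every one of the 8 genes that could be tested is named in each comparison between gates and in the genotype comparison of erythroid cells. In the other genotype comparisons only some are named, and these were chosen after all values were seen. Up to 4 genes of smallest p per list and the 5 genes most like Alas1 are named too. Other named genes were chosen after their values were seen. The 8 genes and all lists were chosen with earlier results of these data known. Promoter stretches and their starts are RefSeq's, gene models GENCODE M21's. A few listed genes are not reported here.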

Additional observations from a re-analysis of the deposited data

How the results depend on the processing

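Between gates, the number of the 8 genes called stayed at 6 for erythroid against stem cells and at 7 for erythroid cells against granulocyte-monocyte progenitors under all 18 settings, and no called difference of the 8 genes changed sign under any setting. It ran from 3 to 4 for granulocyte-monocyte progenitors against stem cells and for erythroblast-list against erythroid cells, from 5 to 7 for neutrophil precursors and from 2 to 4 for monocytes; the erythroblast-list comparison could not be run with clusters or with a gate minimum score of 1, which left too few cells. Between genotypes the count was 0, and with no filter on low counts it was 1, Alas1 in granulocyte-monocyte progenitors. Leaving out a library leaves 1 mouse in its group, and calls changed there. Without Idh1-WT 2 the call was Cpox in erythroid cells; without Idh1-R132H 1 the calls were Alas1 in granulocyte-monocyte progenitors and Alas1 in T and NK cells (2.49, edgeR adjusted p = 0.00365), a gate where Alas1 was too low to test in the comparison as reported and 24 of its 37 UMIs lay in Idh1-R132H 2. The cause was not tested. The fit with a replicate block on the library number called 0. Those numbers were not a pairing in the design. The genotype difference between gates stayed at 0 calls in 17 settings. The Alas1 share of synthase UMIs, 99.5% in erythroid cells, became 100% with at most 5% mitochondrial UMIs, 99.2% without the 5% of cells with the most UMIs and 98.6% with clusters; leaving out each library gave 99.3 to 100%. In stem-gated cells, 99.8%, it became 100% with clusters and with a gate minimum score of 1, and 99.7 to 100% leaving out each library; where the share was 100%, the gate held no Alas2 UMI. Keeping the shared barcodes changed only 1 call of the 8 genes, Ppox in monocytes, called at -0.37 (edgeR adjusted p = 0.0408). Depth limits Alas2, Uros and the small gates.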
